A study of Homo sapiens with 6 samples.

Results

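Cassette exons longer than 200 bases were examined in RNA of LNCaP, a human prostate cancer cell line that responds to androgen. A cassette exon is one that a mature transcript can carry or leave out between the same neighbouring exons, and the deposited table of such skipped exon (SE) events gives the position of each. The long ones were taken as every event whose exon, from start to end, exceeds 200 bases. This gave 4833 of 40622 SE events (11.9%), which are 3981 of 32898 different exons (12.1%) in 2903 of 9553 genes. The KDM4B-labelled libraries (3 libraries, replicates 1, 2 and 4) came from cells stably carrying Flag-tagged KDM4B, a demethylase of histone H3 lysine. The vector controls (3 libraries, replicates 1, 2 and 3) came from cells carrying the plenti6 control plasmid. Cells of both groups spent 3 days in RPMI medium with 10% of a serum abbreviated CFBS in the labels, and total RNA was then extracted with Trizol. Nothing in the labels says that replicates were grown apart, and p-values here speak only for the spread among these 6 libraries, which may be technical.

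Most internal human exons are of nucleosome size or smaller, and the splicing machinery recognises such an exon by pairing the splice sites across it. Long internal exons need sites to be paired over a greater distance, and many of them encode a large stretch of a protein at once. The neuronal reticulons, microtubule-associated proteins, ankyrins and fibronectin are textbook cases in which inclusion of 1 long exon makes a larger form of the protein. Exons whose length is a multiple of 3 can be skipped without shifting the reading frame.

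Long exons had a median length of 255 bases, against 114 bases for exons of 52 to 200 bases. Lengths of up to 300 bases made up 2522 of the long exons, over 300 to 500 bases 664, over 500 to 1000 bases 471 and over 1000 bases 324. The share with a length divisible by 3 was 42.0% (1673 exons), close to the 40.6% of exons of 52 to 200 bases. A RefSeq transcript carrying the exon was listed in the table for 3599 long exons (90.4%), against 96.9% of exons of 52 to 200 bases. For 378 others (9.5%) the table lists the exon only in transcripts newly assembled by the submitters. The RefSeq share was 95.3% at up to 300 bases and 60.2% above 1000 bases. A RefSeq transcript that skips the exon was listed for 551 long exons (13.8%) and for 11.1% of exons of 52 to 200 bases. Among the long exons, 74 (1.86%) span an intron of another event of their gene, 45 of them over 1000 bases long, against 1 of 26916 exons of 52 to 200 bases. The longest, of 12761 bases, belongs to NBPF1, whose near-identical copies share reads. Every long event had reads, and 4603 of 4833 had at least 10 in each library.

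Libraries of the same group were alike and the groups stood apart. SE counts summed to between 14212396 and 14787321 reads in KDM4B-labelled libraries and to between 16451082 and 17021204 in vector controls, sums over events that can share reads. Long events held 19.28% to 19.53% of these reads in KDM4B-labelled libraries and 19.41% to 19.65% in vector controls. KDM4B itself measured 26.4 ± 0.709 FPKM in KDM4B-labelled libraries and 25.1 ± 0.287 FPKM in vector controls (SD, n = 3 each), so every direction below rests on the label. Markers of prostate luminal cells were all listed (7 of 7), and summed to between 1220 and 1300 FPKM against between 3520 and 3730 FPKM. Of 12 basal, fibroblast, endothelial and immune markers, 8 were listed, 7 of those 8 were under 1 FPKM in every library, and the highest, COL1A1, reached 2.98 FPKM. The summed FPKM of ribosomal RNA genes amounted to 9.61% ± 1.29 of the total in KDM4B-labelled libraries and 0.255% ± 0.189 in vector controls (SD, n = 3 each), or 0.146% without vector replicate 1. Its part in any exon result below was not tested. The titles of KDM4B-labelled libraries end in a code absent from the other titles, so that any batch and the group cannot be told apart.

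The first question was how often a long exon was skipped, and whether that differed between the groups. Each deposited event has 1 count per library that joins the reads of the inclusion and the skipping form. Both forms could be recovered for 646 long events (548 exons, 456 genes) that share their flanking exons with another SE event and with a mutually exclusive exon event of the same exons. A skipping read recovered in this way lacks both exons of the set. Transcripts that leave out the long exon but carry its partner are not counted, so the share below can understate how often a long exon is left out. The skipping share is the percentage of an event's reads that belong to the skipping form. It is not an isoform fraction, because reads inside the exon count for inclusion and grow with its length. In bulk RNA, fewer cells using an exon and less use of it per cell cannot be told apart. Skipping was rare. The median share over the 646 events was 0.194%, 506 of them (78.3%) had under 10 skipping reads in all libraries together, and 73 had 0. A share over 10% was measured for 35 events and over 50% for 10.

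Among the events that passed the read filters, 138 held a long exon (127 exons, 109 genes) of 1346 of any length. Of these 138, 5 (3.62%) differed between the groups, where 5.5% of all tested events did (quasi-likelihood test of edgeR, p adjusted by Benjamini-Hochberg over all tested events, threshold 0.05). Inclusion was lower in KDM4B-labelled libraries for 4 of the 5, a call that 4.68% of all tested events had, and higher for 1, a call that 0.817% had. At an unadjusted p below 0.05 there were 26 long events. The skipping shares of the groups did not overlap for 35 long events (25.4%), where 25.9% of all tested events also had none. Inclusion was lower in 20 of the 35 and higher in 15, against 16.7% and 9.21% of all tested events. The median skipping share of the 138 events was 2.51%, 2.62% and 2.82% in KDM4B-labelled libraries and 1.81%, 1.78% and 1.89% in vector controls. Over all 1346 events it was between 4.05% and 4.53% in KDM4B-labelled libraries and between 3.72% and 3.97% in vector controls. Event by event the long exons had no common direction. The log2 odds ratio of inclusion was below 0 for 68 and above 0 for 70, with a median of 0.018 and a mean of -0.14, against a median of -0.08 over all tested events.

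The FASTK exon of 423 bases (chr7:150776587-150777009, minus strand) had the largest log2 odds ratio of inclusion in size among the called ones, at -5.68. FASTK encodes the founding member of a family of proteins that act on mitochondrial RNA. Its skipping form had 19, 18 and 18 reads in KDM4B-labelled libraries, against 0, 0 and 1 in vector controls. Inclusion reads numbered 881, 879 and 839 against 1189, 1169 and 1045. All KDM4B-labelled libraries thus lay near 2% skipping and vector controls near 0, without overlap. The skipping share was 2.07% ± 0.0574 in KDM4B-labelled libraries and 0.0319% ± 0.0552 in vector controls (SD, n = 3 each), and the 0 reads of vector replicate 1 allow a share of up to 0.252%. Over pooled reads the odds of skipping were 72.0 times those in vector controls (95% exact interval 12.4 to 2900, counting error only). The edgeR adjusted p was 2.46e-05, and the call held under each of the 11 alternatives run. RefSeq transcripts with and without this exon are listed, and its length is a multiple of 3. Its partner exons are 140 and 180 bases long, and the recovered skipping reads lack the partner too. The frame of the measured skipping form therefore does not follow from the length of this exon, nor need a listed transcript be that form.

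Skipping was also more frequent in KDM4B-labelled libraries for exons of SLC2A8, SLC22A17 and PPRC1. In SLC2A8, which encodes the glucose transporter GLUT8, the exon of 207 bases had 31.2%, 39.0% and 40.9% skipping reads in KDM4B-labelled libraries and 9.3%, 17.3% and 9.49% in vector controls. That is a log2 odds ratio of inclusion of -2.12 (SE 0.478, edgeR adjusted p = 0.00591). No listed transcript skips this exon. In SLC22A17, a receptor for the iron carrier lipocalin, the exon of 218 bases had 10, 12 and 5 skipping reads against 3, 5 and 1, or 6.99% ± 2.18 against 1.46% ± 0.837 (SD, n = 3 each; log2 odds ratio -2.25, SE 0.661, edgeR adjusted p = 0.0341). A second form of this exon, 272 bases long, shares those skipping reads and missed the threshold (edgeR adjusted p = 0.0878). In PPRC1, a coactivator related to PGC-1, the exon of 721 bases had 12, 20 and 13 skipping reads against 1, 5 and 8. Its skipping share was 3.52% ± 0.606 in KDM4B-labelled libraries and 0.922% ± 0.718 in vector controls (SD, n = 3 each; log2 odds ratio -1.97, SE 0.594, edgeR adjusted p = 0.0389). The groups did not overlap for any of these exons.

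The called exon with more inclusion was that of ZZZ3, 1556 bases long, from a subunit of a histone acetyltransferase complex. It had 1484, 1368 and 1257 inclusion reads in KDM4B-labelled libraries and 1803, 1761 and 1747 in vector controls, beside 1 skipping read in all KDM4B-labelled libraries and 25 in vector controls. Over pooled reads the odds of skipping were 0.0517 times those in vector controls (95% exact interval 0.00126 to 0.316, counting error only; edgeR adjusted p = 0.0302). Skipping stayed under 1% in each library. A second event of this exon missed the threshold (log2 odds ratio 3.32, edgeR adjusted p = 0.087). Of these 5 calls, 4 did not hold when single libraries were left out. The SLC2A8 call, by edgeR, was lost without vector replicate 1 or 3, the ZZZ3 call without KDM4B replicate 2 or 4 or any vector control, the SLC22A17 call without KDM4B replicate 1 or 2 or any vector control, and the PPRC1 call without KDM4B replicate 2 or any vector control. Their highest edgeR adjusted p without single libraries were 0.0713 for SLC2A8, 0.118 for ZZZ3, 0.118 for SLC22A17 and 0.178 for PPRC1. DESeq2 did not call ZZZ3, SLC22A17 or PPRC1, and edgeR called none of the 4 with no filter on low values.

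**Figure D1:**
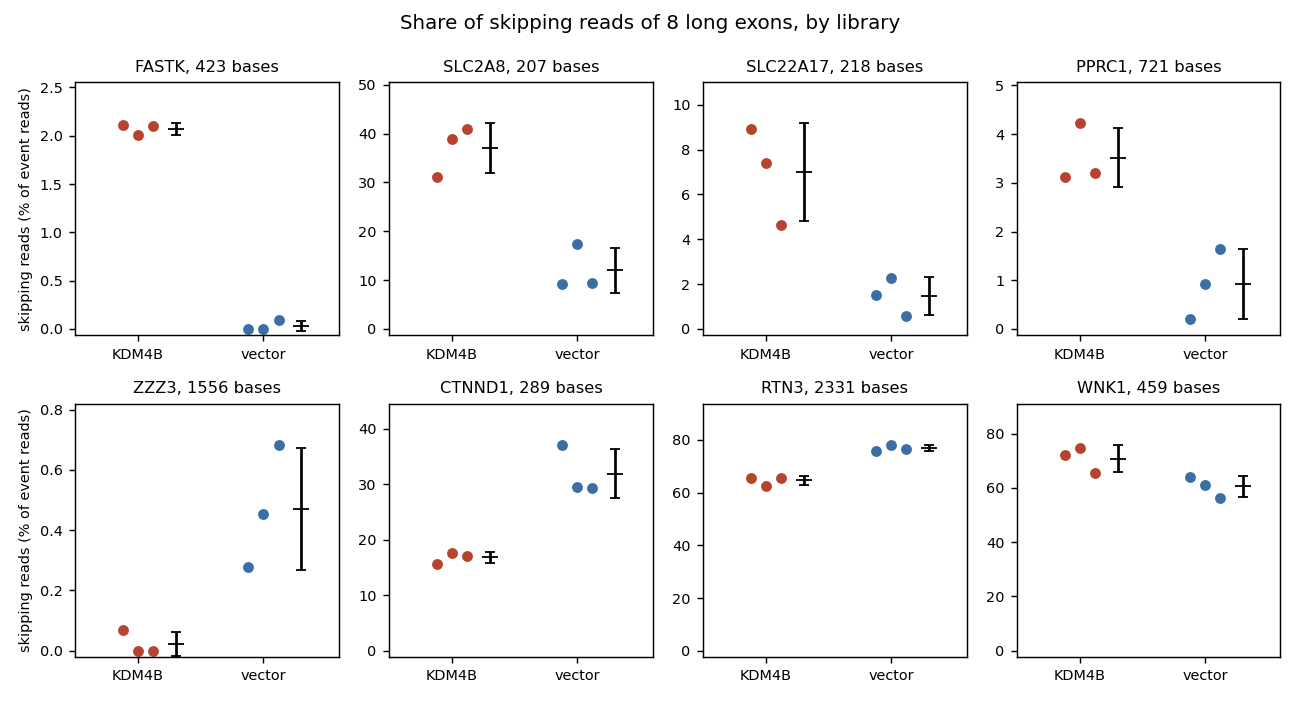
Skipping reads as a percentage of the event's reads (y axis, from 0 in each panel) for 8 long exons, in KDM4B-labelled libraries (left) and vector controls (right); points are libraries, and the horizontal mark and bar give the mean and SD of 3. The 5 exons from FASTK to ZZZ3 passed the edgeR test, the CTNND1, RTN3 and WNK1 exons did not, and in none of the 8 panels do the groups overlap.

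Several long exons were mostly skipped in both groups. The RTN3 exon of 2331 bases is present in the long reticulon 3, an endoplasmic reticulum protein that acts in the turnover of that membrane system. It had 246, 301 and 225 inclusion reads in KDM4B-labelled libraries against 176, 158 and 187 in vector controls, and 472, 500 and 429 skipping reads against 551, 560 and 615. Skipping was 64.6% ± 1.88 in KDM4B-labelled libraries and 76.8% ± 1.11 in vector controls (SD, n = 3 each). The groups did not overlap, but the difference missed the threshold (log2 odds ratio 0.86, SE 0.354, edgeR adjusted p = 0.132) and passed it with a stricter filter on reads (adjusted p = 0.0404), which tests fewer events. The exons of MAP4K4 (a kinase, 231 bases), FAIM (an inhibitor of apoptosis, 434 bases) and USMG5 (a subunit of the mitochondrial ATP synthase, 287 bases) had mean skipping shares of 92.1%, 81.2% and 70.5% in KDM4B-labelled libraries and 89.9%, 77.7% and 76.9% in vector controls. The WNK1 exon of 459 bases, from a kinase that controls ion transport, had 70.8% ± 4.92 against 60.5% ± 3.89 (SD, n = 3 each). None of these passed the test (edgeR adjusted p = 0.318 to 0.789 for MAP4K4, FAIM, USMG5 and WNK1).

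In CTNND1, the gene of the adhesion protein p120 catenin, an exon of 289 bases had fewer skipping reads relative to inclusion reads in KDM4B-labelled libraries. Inclusion reads were 151, 131 and 180 in KDM4B-labelled libraries and 58, 60 and 65 in vector controls, while skipping reads were 28, 28 and 37 against 34, 25 and 27. Each KDM4B-labelled library had over 130 inclusion reads and no vector control over 65. The skipping share was 16.8% ± 1.01 against 31.9% ± 4.37 (SD, n = 3 each; log2 odds ratio 1.22, SE 0.425), which missed the threshold in this test (edgeR adjusted p = 0.079). IRF3, a transcription factor of the interferon response, had 7, 7 and 13 skipping reads against 0, 1 and 1 for an exon of 231 bases, again just short of the threshold (edgeR adjusted p = 0.0544). In total 15 long events (10.9%) had no overlap of the groups and a difference of at least 5 percentage points, where 12.6% of all tested events did, including exons of HM13, CEP192, LYRM1, CEP63, NAT1 and ANKMY1. Of the 15, only the SLC2A8 and SLC22A17 exons passed the test.

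Skipping was measured more often where it was annotated. The 65 tested long exons that a RefSeq transcript leaves out had a median skipping share of 7.78% in KDM4B-labelled libraries and 6.36% in vector controls. The 68 with no listed transcript lacking the exon had 1.18% against 0.987%. Of the 29 tested long exons with over 10% skipping in vector controls, 25 belonged to the 65 and 4 to the 68. Frame made less difference to the medians. The 51 exons with a length divisible by 3 had 2.27% in KDM4B-labelled libraries and 2.28% in vector controls, and the other 87 had 3.28% against 2.54%. Exons next to the length limit varied on both sides. Just outside, the RNF10 and WNK2 exons of 200 bases had 0.199% and 3.77% in KDM4B-labelled libraries against 0.405% and 0.529% in vector controls. Just inside, the BCAT2 and FXR1 exons of 201 bases had 6.0% and 0.0826% against 6.77% and 0.301%. The 3 longest tested exons, in ZNF587B (9234 bases), CLN6 (3166 bases) and KIAA1522 (2562 bases), each had under 1% skipping in every library and were not called.

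The second question was whether the event of a long exon took a larger or smaller share of its gene's reads. For this exon use test the reads of the exon's most-read event, both forms together, were set against the reads of the other SE exons of the same gene. A rise or fall in use therefore means a change of event reads relative to the rest of the gene. It can come from inclusion reads, from skipping reads or from the rest of the gene, and these were not separated. It needs no recovered forms, and 3437 long exons in 2401 genes could be tested among 27591 exons of any length, which leaves 544 long exons untested. Of the 3437, 33 (0.96%) in 27 genes differed between the groups, where 0.515% of all tested exons did (edgeR quasi-likelihood test, adjusted p below 0.05 over all tested exons). Event reads were higher in KDM4B-labelled libraries for 16 of them, a call that 0.239% of all tested exons had, and lower for 17, a call that 0.275% had. At an unadjusted p below 0.05 there were 356 long exons. The groups did not overlap for 488 long exons (14.2%), against 13.0% of all tested exons. Their share was higher in 249 and lower in 239, where 6.44% and 6.52% of all tested exons were without overlap in these directions. The median log2 difference was 0.0015 for long exons and -0.0002 for all tested exons.

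The share called was highest above 1000 bases. Of 285 tested exons over 1000 bases, 14 (4.91%) were called, 8 higher and 6 lower in KDM4B-labelled libraries. Of 2191 exons of over 200 to 300 bases 11 (0.502%) were called, and of 22778 exons of 52 to 200 bases 106 (0.465%). Longer exons also had more reads, with a median of 867 per library above 1000 bases and 238 at over 200 to 300 bases. Exons of any length with 300 to 1000 reads were called in 0.814% of cases and long exons in 1.27%. With at least 1000 reads, 0.483% of exons of any length and 1.28% of long exons were called. Annotation varied with it too. Long exons known only from assembled transcripts were called in 14 of 362 cases (3.87%), those of a RefSeq transcript in 19 of 3073 (0.618%). Above 1000 bases the rates were 8 of 125 (6.4%) and 6 of 159 (3.77%). Among exons of 52 to 200 bases the same split was 3.02% and 0.381%. Long exons that span an intron of their gene were called in 3 of 74 cases (4.05%), the others in 30 of 3363 (0.892%). These differences between classes of exon were not tested.

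**Figure D2:**
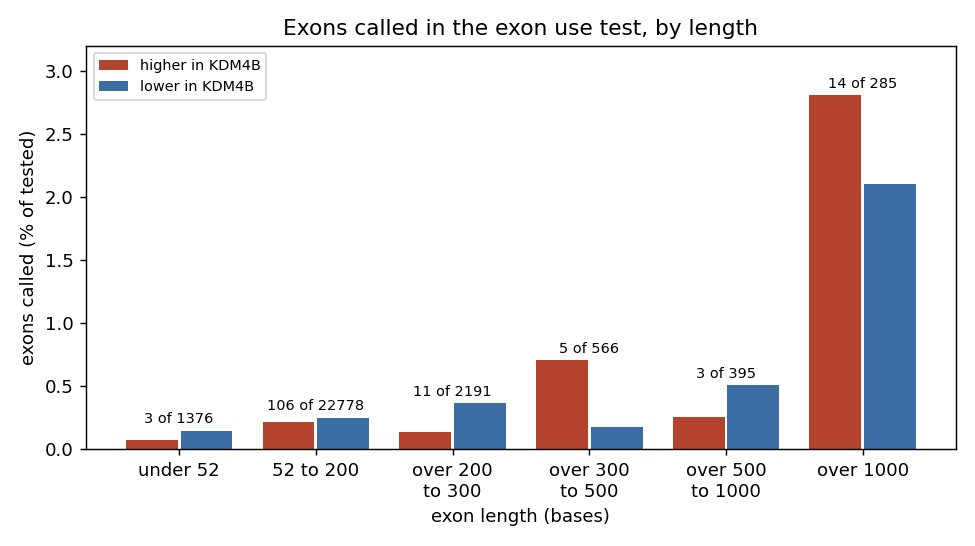
Exons called in the exon use test as a percentage of those tested (y axis) by exon length in bases (x axis), split into exons higher (left bar) and lower (right bar) in KDM4B-labelled libraries; the label gives the number called of the number tested. Exons over 1000 bases were called in 14 of 285 cases and exons of 52 to 200 bases in 106 of 22778.

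Position among the tested SE exons of a gene was also examined. In genes with more than 2 tested exons, the first tested exon was long in 666 cases. Of these, 2 were called higher and 5 lower (1.05%), against 0.757% of 4624 first tested exons of any length. The last tested exon was long in 482 cases, of which 3 were called higher and 1 lower (0.83%), against 0.454% of 4624. The median log2 differences of these long exons were 0.0103 at the start and -0.0116 at the end. Whether position or RNA quality bears on the calls was not tested.

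The largest change in exon use was that of the RTN4 exon of 2400 bases (chr2:55252222-55254621, minus strand). RTN4 encodes the reticulon Nogo, and this long exon belongs to its largest form, Nogo-A, an inhibitor of neurite growth that is best known from myelin. Its event had 130, 96 and 121 reads in KDM4B-labelled libraries, against 13, 16 and 23 in vector controls. The other tested RTN4 exons had 1662, 1604 and 1626 reads against 1548, 1538 and 1428. The lowest KDM4B-labelled library thus had over 4 times the reads of the highest vector control, while the rest of the gene differed little. The event took 6.61% ± 0.849 of the gene's SE reads in KDM4B-labelled libraries and 1.15% ± 0.39 in vector controls (SD, n = 3 each; log2 difference 2.61, SE 0.206, edgeR adjusted p = 2.4e-07). RTN4 as a whole measured 53.9 ± 1.47 FPKM against 49.4 ± 0.435 FPKM (SD, n = 3 each). None of the other tested exons of the gene was called, a second long one of 208 bases included (log2 difference -0.26, edgeR adjusted p = 0.264). The call held under all 13 alternatives. RTN4 lay outside the rule for named exons, because fewer than 20 reads were counted in some vector controls, and was singled out after its values were seen.

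Exon use also rose for a long exon each of NIN, NASP and KMT2D. The NIN exon of 2139 bases (chr14:51223210-51225348, minus strand) encodes a large part of ninein, a centrosome protein that anchors microtubules. It had 616, 544 and 506 event reads in KDM4B-labelled libraries and 338, 395 and 362 in vector controls, with no overlap. That was 38.7% ± 3.5 of the gene's SE reads against 24.9% ± 0.798 (SD, n = 3 each; log2 difference 0.93, SE 0.104, edgeR adjusted p = 1.92e-05), although NIN itself was lower, at 11.2 ± 0.439 FPKM against 13.5 ± 0.165 FPKM (SD, n = 3 each). Both shorter long exons of NIN, of 216 and 204 bases, lay below 0, at log2 differences of -0.49 and -0.51 that were not called (edgeR adjusted p = 0.0884 and 0.242). NASP encodes a chaperone of linker and core histones, and its exon of 1017 bases distinguishes the testicular from the somatic form of the protein. The NASP event had 1487, 1453 and 1398 reads in KDM4B-labelled libraries against 969, 1043 and 1029 in vector controls (log2 difference 0.39, SE 0.0596, edgeR adjusted p = 0.00127), and the groups did not overlap. No other tested NASP exon was called, with log2 differences from -0.19 to 0.02. RefSeq transcripts with and without the long exon are listed for RTN4, NIN and NASP alike.

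KMT2D, a methyltransferase of histone H3 lysine, had an exon of 1141 bases with 1004, 1019 and 1044 event reads in KDM4B-labelled libraries and 941, 1025 and 877 in vector controls. Relative to the other exons of the gene this was 25.4% ± 0.748 against 21.4% ± 1.18 (SD, n = 3 each; log2 difference 0.32, SE 0.0642, edgeR adjusted p = 0.0225). The raw reads of the groups overlapped and their shares did not. The call was lost without KDM4B replicate 4, without vector replicate 1 or 3, and with the sum over all events of the exon (adjusted p of at most 0.164 without single libraries). A pair of shorter KMT2D exons was called lower, of 110 bases (log2 difference -0.46, edgeR adjusted p = 0.00455) and of 127 bases (-0.33, adjusted p = 0.0323). All tested KMT2D exons from position 49396927 to 49399635 lay below 0, from -0.21 to -0.46. All from 49416063 to 49436113 lay above 0, from 0.18 to 0.40, the long exon among them. The rise was therefore not particular to the long exon. The remaining tested exons, up to position 49448809, ran from -0.28 to 0.32. NASP and KMT2D were called but not among the largest changes, and were also singled out after their values were seen.

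**Figure D3:**
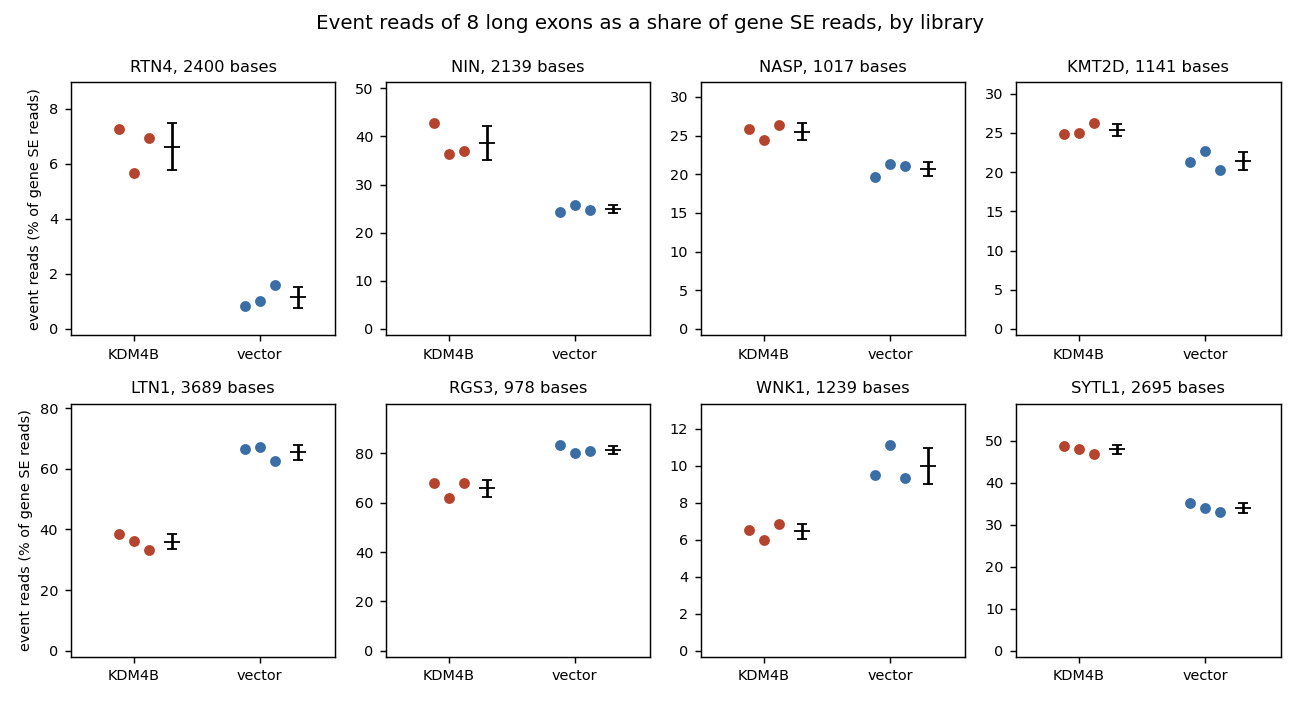
Event reads of 8 long exons as a percentage of the SE reads of their gene (y axis, from 0 in each panel), in KDM4B-labelled libraries (left) and vector controls (right); points are libraries, and the horizontal mark and bar give the mean and SD of 3. RTN4, NIN, NASP, KMT2D and SYTL1 were higher and LTN1, RGS3 and WNK1 lower in KDM4B-labelled libraries, each without overlap of the groups.

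The largest fall was that of the LTN1 exon of 3689 bases. LTN1 is a ubiquitin ligase that clears unfinished proteins from stalled ribosomes. The event had 471, 496 and 414 reads in KDM4B-labelled libraries and 589, 646 and 600 in vector controls, while LTN1 as a whole was higher, at 9.27 ± 0.486 FPKM against 5.29 ± 0.235 FPKM (SD, n = 3 each). The event thus took 36.0% ± 2.6 of the gene's SE reads in KDM4B-labelled libraries and 65.4% ± 2.41 in vector controls (SD, n = 3 each; log2 difference -1.75, SE 0.111, edgeR adjusted p = 8.41e-09). Only assembled transcripts carry this exon and RefSeq transcripts skip it. A second LTN1 exon, of 221 bases, rose by 1.12 (SE 0.124, edgeR adjusted p = 1.72e-05) in the same test. Set against the gene's exons of 52 to 200 bases alone, which leaves out the 3689-base exon, that rise was 0.04 and no longer called (edgeR adjusted p = 0.978). Those exons include one of 195 bases that was itself called higher (log2 difference 1.77, edgeR adjusted p = 8.41e-09). It had 388, 478 and 423 event reads in KDM4B-labelled libraries against 111, 122 and 128 in vector controls. The 221-base exon had 278, 355 and 345 against 122, 121 and 137. The value of 0.04 therefore cannot tell whether its rise only mirrors the fall of the 3689-base exon. The remaining tested LTN1 exons, of 181 and 53 bases, had log2 differences of -0.81 and -0.67 that were not called (edgeR adjusted p = 0.146 and 0.564). All LTN1 exons from position 30333400 upward thus lay below 0, and those of 221 and 195 bases, at lower positions, above 0. A value below 0 was therefore not particular to the long exon.

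RGS3, a regulator of G protein signalling, showed a fall of similar kind. Its exon of 978 bases, known only from assembled transcripts, had 797, 701 and 782 event reads in KDM4B-labelled libraries and 1243, 1083 and 1066 in vector controls (log2 difference -1.2, SE 0.117, edgeR adjusted p = 3.35e-06). Every KDM4B-labelled library lay under every vector control. The other 4 tested RGS3 exons, of 84 to 197 bases, had log2 differences of 0.71 to 1.18, 3 of them called, and each had more reads in every KDM4B-labelled library than in any vector control. The rest of the gene that they are set against holds the 978-base exon, so these values are not independent of its fall. The WNK1 exon of 1239 bases is listed in RefSeq transcripts and absent from others. It had 195, 192 and 204 event reads against 317, 372 and 314 (log2 difference -0.68, SE 0.096, edgeR adjusted p = 0.000464), without overlap of the groups.

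WDR33, a factor that reads the polyadenylation signal, held called exons in both directions. The one of 227 bases fell by 1.04 (SE 0.116, edgeR adjusted p = 1.76e-05) and the one of 439 bases rose by 0.80 (SE 0.103, adjusted p = 0.000155), of which the rise was 0.22 and not called against the exons of 52 to 200 bases (adjusted p = 0.743). ARIH2, a ubiquitin ligase, had a rise of 0.47 (SE 0.0423, edgeR adjusted p = 1.34e-06) for an exon of 2482 bases and a fall of 0.46 (SE 0.0441, adjusted p = 2.47e-06) for one of 3096 bases, the fall being lost in the same comparison at -0.17 (adjusted p = 0.419). Both ARIH2 exons are known only from assembled transcripts. SLC45A3, a prostate transporter gene, has exactly 2 tested exons, of 786 and 3292 bases, so that a rise of 1.09 in the longer is the same result as a fall in the shorter (SE 0.109, edgeR adjusted p = 4.51e-06). The gene itself measured 22.7 ± 1.68 FPKM in KDM4B-labelled libraries and 170.0 ± 7.85 FPKM in vector controls (SD, n = 3 each).

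Further genes held a long exon whose use rose relative to the rest of the gene. GMPPB (a sugar nucleotide enzyme, 351 bases) and USP21 (a deubiquitinase, 409 bases) both rose by 1.10, and SYTL1 (a vesicle trafficking protein, 2695 bases) by 0.83, each in exons of assembled transcripts only and each under all 13 alternatives. The SYTL1 exon (chr1:27677285-27679979) encloses SYTL1 exons of 100 and 206 bases and the bases between them, so its reads can include theirs. The 2695-base event had 643, 715 and 657 reads in KDM4B-labelled libraries and 1297, 1308 and 1227 in vector controls. The rest of the gene was lower still, with 676, 770 and 748 reads against 2388, 2544 and 2503. TRPM4 (a cation channel, 435 bases) rose by 0.65, SLC37A4 (the transporter of glucose 6-phosphate, 504 bases) by 0.64, MAMDC4 (263 bases) by 0.82 and a TUBGCP6 exon of 211 bases by 0.54. B4GALT7 (a glycosyltransferase of proteoglycan synthesis) rose by 0.62 in an exon of 9265 bases listed only in assembled transcripts. Event reads of the groups overlapped for GMPPB (281, 261 and 223 against 241, 249 and 306), USP21, TRPM4, SLC37A4, MAMDC4 and TUBGCP6. For B4GALT7 they were lower in every KDM4B-labelled library than in any vector control. In each of these genes the rest of the gene had fewer reads in every KDM4B-labelled library than in any vector control. The calls of MAMDC4, SLC37A4 and TUBGCP6 were lost without vector replicate 1 or 3 and without KDM4B replicate 2, that of SLC37A4 also without KDM4B replicate 4 or vector replicate 2, that of MAMDC4 without KDM4B replicate 1, and that of TUBGCP6 without KDM4B replicate 1 or vector replicate 2. Their edgeR adjusted p without single libraries reached 0.104, 0.257 and 0.237. DESeq2 did not call MAMDC4, and the SLC37A4 and TUBGCP6 calls were also lost against the exons of 52 to 200 bases alone and with the sum over all events of the exon.

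Among the remaining falls, those of VPS51 (a subunit of a vesicle tethering complex, 220 bases, log2 difference -0.58), IPO4 (a nuclear import receptor, 1090 bases, -0.53), CALD1 (caldesmon, an actin-binding protein, 222 bases, -0.52) and a TUBGCP6 exon of 1060 bases (a gamma-tubulin complex protein, -0.69) held under all 13 alternatives. The CALD1 exon fell in use while its event had 660, 741 and 781 reads in KDM4B-labelled libraries against 429, 451 and 403 in vector controls. The gene as a whole was higher by more, at 176 ± 6.11 FPKM against 71.6 ± 2.74 FPKM (SD, n = 3 each). BANK1 (a B cell scaffold protein, 399 bases) fell by 1.01 and HSF4 (a heat shock transcription factor, 297 bases) by 0.68, and both calls were lost when any 1 library was left out (edgeR adjusted p of up to 0.235 and 0.216). The BANK1 event had 61, 47 and 61 reads in KDM4B-labelled libraries against 58, 67 and 55 in vector controls, which overlap. The rest of BANK1 had 277, 254 and 278 reads against 153, 122 and 154. The HSF4 call was also lost against the exons of 52 to 200 bases alone and with the sum over all events of the exon. FBXL17 (a ubiquitin ligase subunit, 258 bases) and NCDN (neurochondrin, 225 bases) fell by 0.30 each. The FBXL17 call was lost without KDM4B replicate 1 or 4 or vector replicate 1 or 2 (adjusted p up to 0.33), and the NCDN call without KDM4B replicate 1 or 2 or any vector control (up to 0.15). Against the gene's exons of 52 to 200 bases alone the NCDN difference was -0.13 and not called (edgeR adjusted p = 0.844). NBPF14 exons of 206 and 215 bases (-1.24 and -0.86) come from a gene with near-identical copies, and a PHOSPHO2-KLHL23 exon of 1215 bases (-1.25) lies in a readthrough of neighbouring genes. How reads were split there is not known, so these values are uncertain. Event reads of the groups overlapped for both NBPF14 exons, while the gene measured 52.7 ± 1.97 FPKM in KDM4B-labelled libraries and 25.5 ± 0.508 FPKM in vector controls (SD, n = 3 each). The 215-base NBPF14 call was also lost without vector replicate 2 (edgeR adjusted p = 0.0858) and the PHOSPHO2-KLHL23 call without KDM4B replicate 1 or 2 or any vector control (up to 0.132).

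**Figure D4:**
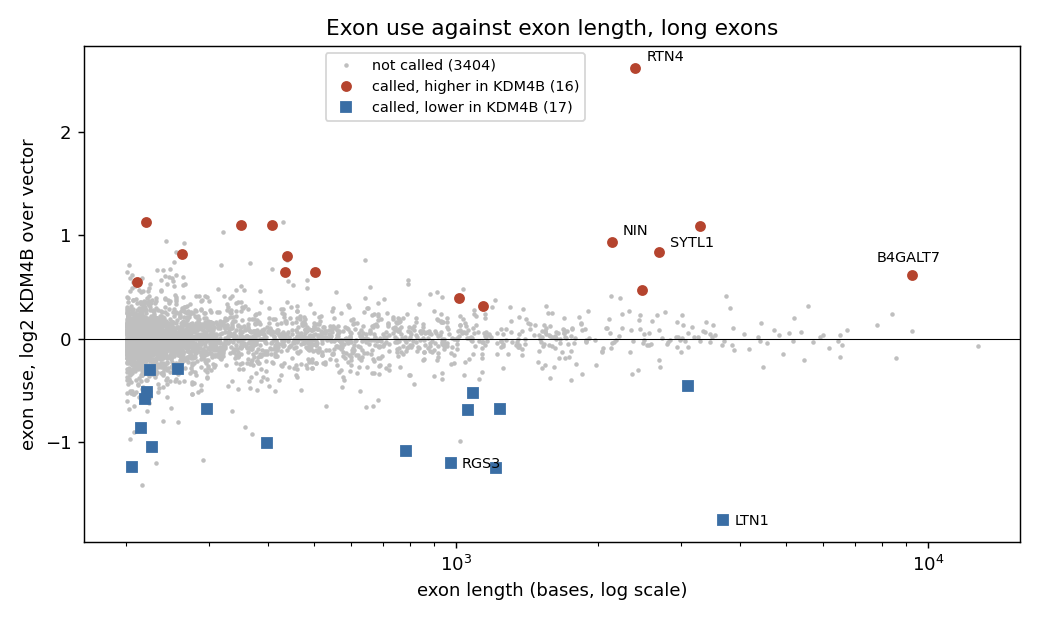
Exon use (y axis, log2 of KDM4B-labelled libraries over vector controls) against exon length in bases (x axis, log scale) for the 3437 tested long exons. Grey points are the 3404 exons not called, circles the 16 called higher and squares the 17 called lower; RTN4 at 2.61 and LTN1 at -1.75 are the extremes among the called exons.

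A separate list of textbook genes, which does not hold RTN4, was also read out in the exon use test. Of these genes, 6 had tested long exons, among them FN1, MKI67, ANK3, MAP2 and MAP4, with 10 exons in all. None was called by edgeR or DESeq2, 3 had an unadjusted p below 0.05, and their log2 differences ran from -0.09 to 0.55 with a median of 0.02. The MAP2 exon of 3726 bases, which makes the large forms of this dendritic microtubule protein, came nearest. It had 859, 939 and 837 event reads in KDM4B-labelled libraries and 597, 631 and 559 in vector controls, all higher without overlap, but a log2 difference of 0.41 (SE 0.105) missed the threshold (edgeR adjusted p = 0.112). It passed against exons of 52 to 200 bases alone (0.49, edgeR adjusted p = 0.0437). The giant ANK3 exon of 7812 bases, from ankyrin-G, had 825, 790 and 939 reads against 642, 652 and 634 (log2 difference 0.13, SE 0.0635, edgeR adjusted p = 0.617). The FN1 exons of 267, 270 and 273 bases, among them the extra domains of fibronectin, had log2 differences of -0.08, -0.09 and 0.25 while the gene was higher, at 33.2 ± 0.795 FPKM against 10.9 ± 0.503 FPKM (SD, n = 3 each).

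Gene groups were chosen by gene name alone and function was not checked, so that the actin and adhesion group also holds ANKMY1 and ANKRD17. Long exons of these groups held 0 or 1 call each, where 0.515% of all tested exons and 0.96% of long exons were called. Nothing is read from counts so small. Splicing factors had 40 tested long exons in 29 genes with 0 called by edgeR or DESeq2 (1 at an unadjusted p below 0.05 by edgeR), and zinc finger genes 79 in 61 genes with 0 called by either tool (9 at an unadjusted p below 0.05). Chromatin genes had 76 in 45 genes, of which the KMT2D exon rose and none fell (2 called by DESeq2, 9 at an unadjusted p below 0.05 by edgeR). Centrosome and mitosis genes had 44 in 29 genes, of which the NIN exon rose and none fell (1 called by DESeq2, 5 at an unadjusted p below 0.05). Actin and adhesion genes had 49 in 29 genes with 0 called by either tool (3 at an unadjusted p below 0.05). The medians of these groups lay between 0.003 and 0.028, against -0.0002 over all tested exons.

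The third question was which exon of an exclusive pair was used. Here a mutually exclusive exon event sets a long exon against a partner between the same flanks. Of 605 tested pairs with a long exon (440 genes), 9 (1.49%) differed, where 1.63% of all 2997 tested pairs did (edgeR quasi-likelihood test, adjusted p below 0.05). The longer exon was higher in KDM4B-labelled libraries in 5 pairs, a call that 0.667% of all tested pairs had, and lower in 4, a call that 0.968% had. In CTNND1 the exon of 289 bases was set against one of 72 bases in 2 events with different flanks. In the first it had 151, 131 and 180 reads in KDM4B-labelled libraries and 58, 60 and 65 in vector controls. The partner had 425, 460 and 454 reads in KDM4B-labelled libraries and 456, 396 and 440 in vector controls. The longer exon had more reads in each KDM4B-labelled library than in any vector control, while the partner's reads overlapped. Its share was 25.6% ± 3.16 against 12.4% ± 1.01 (SD, n = 3 each; log2 odds ratio 1.28, SE 0.171, edgeR adjusted p = 1.03e-05), and in the second event 29.5% ± 2.21 against 16.0% ± 1.58 (log2 odds ratio 1.14, SE 0.179, adjusted p = 0.000137). In the exon use test the same exon stood at 0.36 and missed the threshold (edgeR adjusted p = 0.0901). A CTNND1 exon of 119 bases was called higher there (1.67, adjusted p = 0.00179), and a 180-base form of the long exon was not (0.10, adjusted p = 0.857). The epithelial splicing regulator ESRP1, whose known targets include CTNND1, measured 17.24, 17.4 and 18.62 FPKM in KDM4B-labelled libraries and 52.62, 48.47 and 48.79 FPKM in vector controls. ESRP2, the other splicing regulator read out, measured 21.6 ± 0.898 FPKM against 23.0 ± 0.82 FPKM (SD, n = 3 each). Any link of either gene with CTNND1 splicing was not tested.

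Among the other pairs, the longer exon gained in GPR137 (226 against 150 bases, 63.1% ± 7.67 in KDM4B-labelled libraries and 49.9% ± 1.82 in vector controls) and in NDUFV3, a subunit of respiratory complex I (1095 against 121 bases, 62.4% ± 2.21 and 57.0% ± 1.23; SD, n = 3 each). A PMF1-BGLAP pair of 2937 and 106 bases, from a readthrough of neighbouring genes whose reads are uncertain, had 90.1% ± 0.676 and 85.7% ± 0.724. The longer exon lost in KLK2, a kallikrein protease of the prostate (287 against 174 bases, 71.1% ± 2.66 and 76.9% ± 1.45), in CSNK2A1, the catalytic subunit of casein kinase 2 (210 against 117 bases, 93.7% ± 0.924 and 96.6% ± 0.6), and in FXR1, an RNA-binding protein (201 against 92 bases, 92.5% ± 0.797 and 95.1% ± 0.57). A SYTL1 pair rests on 4, 4 and 7 reads of the partner against 0, 2 and 5. Its longer exon had 96.9%, 97.5% and 93.7% of the reads in KDM4B-labelled libraries, against 99.5% and 98.8% in vector replicates 2 and 3. The calls of both CTNND1 events and of PMF1-BGLAP held without any single library. The others were lost in at least 1 such case: KLK2 without KDM4B replicate 1, CSNK2A1 without KDM4B replicate 4 or vector replicate 2, FXR1 without KDM4B replicate 2 or vector replicate 1 or 3, GPR137 without KDM4B replicate 1 or vector replicate 1 or 3, SYTL1 without KDM4B replicate 1 or 4 or vector replicate 1 or 2, and NDUFV3 without KDM4B replicate 2 or 4 or any vector control. Their edgeR adjusted p without single libraries reached 0.0907, 0.0889, 0.174, 0.17, 0.288 and 0.288. DESeq2 called none of KLK2, FXR1, GPR137, SYTL1 and NDUFV3, and the NDUFV3 call was also lost with no filter on low values.

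**Figure D5:**
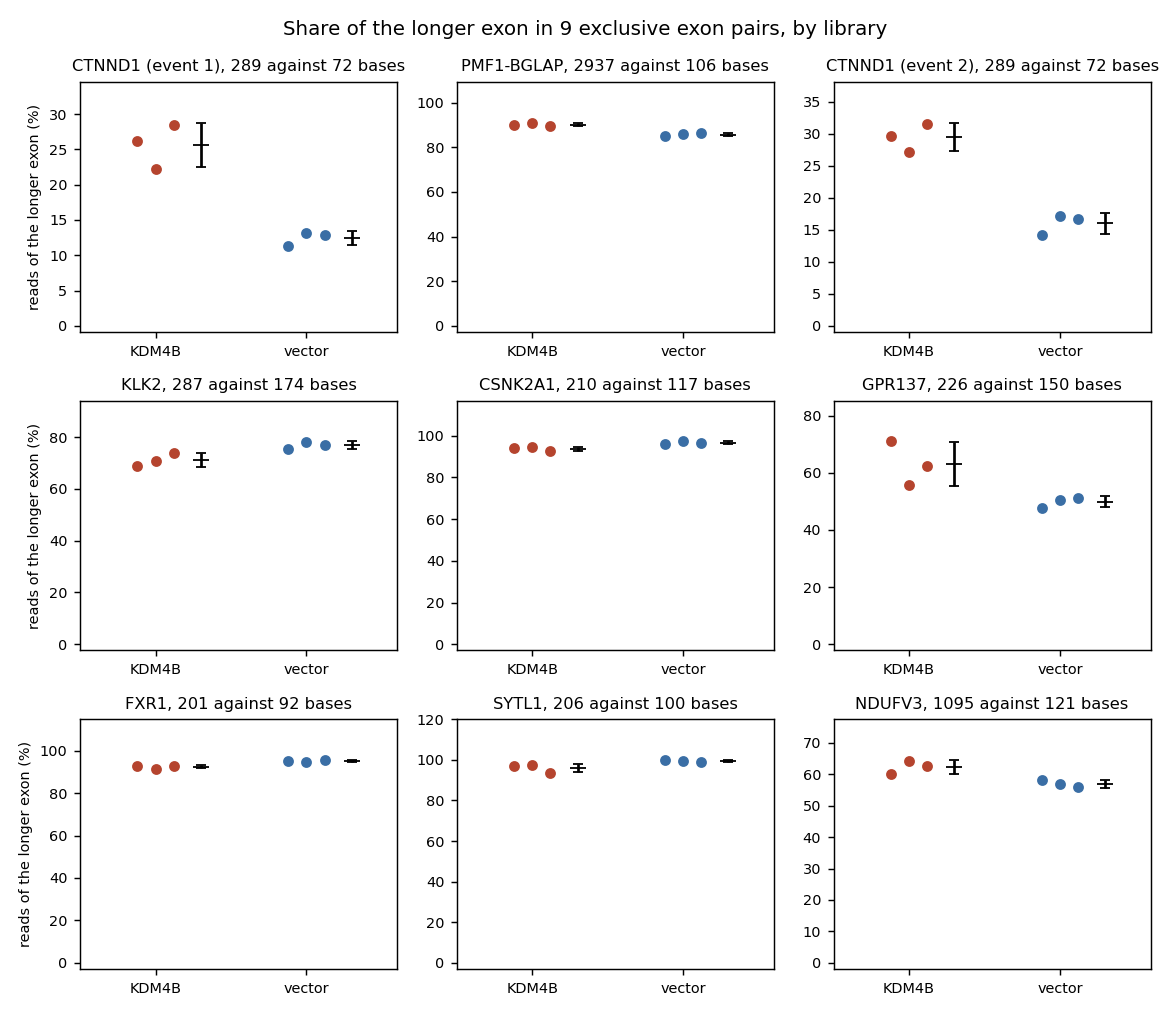
Reads of the longer exon as a percentage of the reads of both exons (y axis, from 0 in each panel) in the 9 called exclusive pairs, in KDM4B-labelled libraries (left) and vector controls (right); points are libraries, and the horizontal mark and bar give the mean and SD of 3. The CTNND1 share was 25.6% against 12.4% in 1 event and 29.5% against 16.0% in the other.

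In gene expression, the genes that hold long exons were called at rates near those of all genes. Of 2903 such genes 2902 were in the FPKM table, and 2761 were tested. As deposited, 382 (13.8%) were higher and 1723 (62.4%) lower in KDM4B-labelled libraries, where 13.4% and 60.3% of all 12148 tested genes were (limma on log2(FPKM + 1), adjusted p below 0.05). After median-of-ratios scaling, which moved the median of all tested genes from -0.216 to 0.00 on the log2 scale, 974 (35.3%) were higher and 995 (36.0%) lower, against 34.1% and 33.9% of all genes. The exon use and pair tests compare reads within a gene and do not depend on that shift.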

How the data were processed

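RNA-seq of 6 LNCaP libraries was analysed, grouped by genotype and title labels. The authors deposited whole-number read counts per splicing event and library, not normalized, and gene FPKM values, per the file headers. Per the submitters' processing notes, HISAT, StringTie, Cufflinks and the builds GRCh38 and hg38 were used, with no role stated. The tool that called the events is not named in the sources used here. Positions are as deposited, with starts shifted to count from 1, and their build is uncertain, since only 12.7% of long exons lie inside their gene on GRCh38. RefSeq genes of GRCh38 served for names only (2901 of 2903 genes matched). The tables of alternative 5' splice sites and retained introns were not used, nor were any sequences.

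Where 2 SE events and 1 MXE event share exons and flanks, the MXE count was subtracted from the summed SE counts, and the remainder divided by 2 is the skipping count. Of 19482 such values 19478 (99.98%) were even and not negative. This gave both forms for 6027 SE events. Splice forms, exon use and exclusive pairs were each fitted with edgeR 4.0.16 (R 4.3.3, glmQLFit and glmQLFTest) with terms for library, read class and read class by group. Form and pair events needed 10 reads in each library and 10 of each class over all libraries, exon use a mean of 20 reads in each class. Host genes with a mean of at least 1 FPKM were tested with limma 3.58.1 (mean-variance trend) on log2(FPKM + 1), which understates the change of low genes. All tests are two-sided with Benjamini-Hochberg adjustment at 0.05 over all features. Each was checked on simulated data. Alternatives were DESeq2 1.42.0, other filters, a replicate block, other sums of reads, another pseudocount, scaling and each library left out. A pair of further alternatives, chosen after seeing the data, took skipping counts for every event on recovered flanks and left overlapping exons out of the rest of the gene.

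Exons were named if called in the form test, if among the 10 largest rises or falls in use (at least 20 reads in each library, no overlap, 1 per gene), if of the textbook list, the most skipped, the longest or next to 200 bases, or among the 3 lowest p of a gene group. One gene of the textbook list is not reported here. The members, lists and rules were chosen with earlier results of these data known. Over long exons, chi-square over its degrees of freedom was 2.66 to 3.44 within groups and 34.5 to 42.0 between them, so no library copies another. Exact intervals cover counting error alone.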

Additional observations from a re-analysis of the deposited data

How the results depend on the processing

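The splice form calls of long exons depended on the processing. In place of 5 calls, DESeq2 made 2, the replicate block 1, no filter on low values 1 and a stricter filter on reads 13 (4 with more and 9 with less inclusion, the 5 among them), and leaving out single libraries gave 1 to 7. Without vector replicate 1 or 3 only the FASTK call remained, and it was the only one kept under all alternatives run. Exon use gave 50 calls with the replicate block (26 higher and 24 lower, 31 of the 33 among them, without those of KMT2D and HSF4). The other alternatives gave 24 to 39, and 20 of the 33 calls were kept under every alternative. Exclusive pairs gave 9 calls, 4 with DESeq2, 2 with the replicate block and 5 to 8 without single libraries, and 2 of the 9 were kept under every alternative. No pairing by replicate number was seen. Deviations of the libraries numbered 1 correlated at 0.00907 and of those numbered 2 at 0.0436, while numbers 3 and 4 have no counterpart. Across groups, libraries of unlike number correlated at -0.0475 to 0.0412. With so few shared numbers, whether libraries of the same number were handled together cannot be told. Calls of host genes numbered 2105, and 1965 to 2104 under the alternatives. Median-of-ratios scaling turned host genes that lay below 0 as deposited, 5 of them called, to log2 differences of 0.19 (DDX5), 0.13 (PPRC1), 0.23 (NCDN), 0.02 (USP21), 0.19 (MAP2), 0.09 (WNK1), 0.06 (RBM42), 0.08 (USMG5) and 0.07 (TUBGCP6). Depth limits the form test, since 506 of 646 recovered long events had under 10 skipping reads. The cause of the other changes was not tested.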
